A study of Homo sapiens with 6 samples.

Results

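The 86 genes described here encode, by their symbols, the nuclear-encoded subunits of the 5 oxidative phosphorylation complexes, with a few close relatives. They were every gene of the deposited table, 86 of 15802, whose symbol starts with NDUFA, NDUFB, NDUFC, NDUFS or NDUFV followed by a digit (complex I), is SDHA, SDHB, SDHC or SDHD (complex II), starts with UQCR or is CYC1 (complex III), starts with COX4 to COX8 (complex IV), or starts with ATP5 (complex V, ATP synthase). RNA was sequenced in bulk from SC1, an established human B-cell lymphoma line, in 3 libraries treated with bryostatin at 1 nM and 3 libraries treated with DMSO, the vehicle. Bryostatin is a marine macrolide that acts on protein kinase C (PKC) in place of diacylglycerol. The libraries are called bryostatin 1 to 3 and DMSO 1 to 3. How long the cells were treated is not given in the sources used here, and the labels do not tell whether replicates came from separate cultures. The p-values therefore cover the spread between these libraries, which may be technical. In bulk RNA, a different mix of cells and a different amount of RNA per cell cannot be told apart.

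Oxidative phosphorylation takes place in the inner mitochondrial membrane. Complexes I and II pass electrons from NADH and succinate to ubiquinone, complex III passes them to cytochrome c and complex IV to oxygen; complexes I, III and IV pump protons, and ATP synthase uses the returning protons to make ATP. Most subunits are encoded in the nucleus and a core set in mitochondrial DNA, so both genomes are needed to build complexes I, III, IV and V, while complex II is wholly nuclear-encoded. The mitochondrially encoded subunits were not analysed here.

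Libraries held 18162161 to 18915394 expected counts (estimated read counts per gene). The B-cell label held: CD79A, CD79B, MS4A1, CD22 and PAX5 had 2806 to 19497 counts in every library, while CD3E, CD3G and GNLY of T and NK cells had 0 to 2. The other T and NK marker in the table, CD247, was detected, with 60, 34 and 28 counts in bryostatin 1, 2 and 3, against 62, 55 and 63 in DMSO 1, 2 and 3. Summed TPM of the 4 markers was 1.71 to 3.31 with bryostatin and 3.26 to 3.90 with DMSO. That of 5 myeloid markers was 59.2 to 136 and 104 to 175, nearly all S100A8 and S100A9, with CSF1R at 0 to 4 counts. That of 7 epithelial, stromal and endothelial markers was 1.59 to 2.90 and 2.70 to 3.23. The part of these markers in the results was not tested. Bryostatin 1 stood apart from the other 5 libraries. Its median correlation with them (Pearson, log2 CPM, across genes, which are not independent replicates) was 0.981, against 0.986 to 0.988 for the others, and a library quality weight estimated by limma was 0.104 for it against 1.22 to 1.90 for the others. Its counts were shifted towards short transcripts. With the genes divided by effective length into 5 classes of 2199 genes each, the median log2 CPM relative to the DMSO mean was 0.23, -0.08 and -0.05 in bryostatin 1, 2 and 3 for the shortest class. For the longest class it was -0.27, 0.06 and 0.04. CPM are counts divided by the scaled library size in units of 1000000, and effective length is the length implied by the deposited counts and FPKM. The subunit genes were short, with a median effective length of 523 bases against 2714 for all genes, and 62 of the 82 with a length lay in the shortest class. What sets bryostatin 1 apart was not tested. Values are therefore given with it and without it, and leaving it out was a choice made because that library was known to differ.

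Several of the promoters are shown first because 11 of them hold a short motif near the start. Promoter sequences (RefSeq, GRCh38.p14, 250 bases before to 50 after the annotated start) matched 69 of the 86 genes. The letters AAGATGGC, the core of the motif bound by the zinc-finger factor YY1, were present on either strand in 11 of the 69, 15.9%, against 5.76% of the 9610 promoters of tested genes and 3.03% of all 27305 promoters in the table. The 11 stretches of 30 bases around the match are given below, with the core in capitals (its reverse complement in ATP5PB), because all but 2 of them lie on the transcript strand after the start, at 11 to 39 bases. Of the 580 matches in promoters of tested genes, 56.0% were on the transcript strand anywhere in the 50 bases after the start. The exceptions are ATP5PB and ATP5PF, at 2 and 57 bases before the start.
NDUFA3 (chr19:54102865-54102894, plus strand): ccgcggagacaAAGATGGCtgcgagtaagt
NDUFA6 (chr22:42090729-42090758, minus strand): gatgctttggcAAGATGGCggggagcggcg
NDUFA7 (chr19:8321343-8321372, minus strand): atcgcggacggAAGATGGCgtccgccaccc
NDUFA9 (chr12:4649113-4649142, plus strand): gattgtgggaaAAGATGGCggctgccgcac
NDUFS4 (chr5:53560649-53560678, plus strand): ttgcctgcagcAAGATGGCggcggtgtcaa
NDUFS7 (chr19:1383913-1383942, plus strand): aggccgaggccAAGATGGCggtgctgtcag
SDHB (chr1:17054004-17054033, minus strand): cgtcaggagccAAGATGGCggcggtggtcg
UQCRC1 (chr3:48609605-48609634, minus strand): actgcagctggAAGATGGCggcgtccgtgg
ATP5PB (chr1:111449451-111449480, plus strand): acttgtgagcgGCCATCTTggtcctgccct
ATP5PF (chr21:25735093-25735122, minus strand): taggcgaagaaAAGATGGCggaggctgtgc
ATP5PO (chr21:33915755-33915784, minus strand): cctacagccgcccgggagAAGATGGCtgcc

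Other motifs searched on both strands were the ETS core CCGGAAG, bound by GABP among others, in 20 of the 69 members against 20.7% of the promoters of tested genes, and the core of the palindromic NRF1 motif in 4 of the 69, 5.80%, against 2.43%. The GC box GGGCGG was in 62.3% against 70.9%, the CAAT box CCAAT in 33.3% against 37.3%, and the TATA box TATAAA in 8.70% against 5.75%. The ETS and YY1 cores can share the letters AAG, so the same bases can count for both. NRF1 and GABP are known regulators of respiratory subunit genes. A match describes letters in this window and does not show binding. The YY1 core also contains ATG, the letters of a protein start codon. Whether the matches after the start lie at start codons was not tested. The upstream part of the promoter differed widely between members, as in the genes below, each the member of its complex with the smallest p without bryostatin 1 and a promoter entry. SDHB holds an ETS core and a GC box, while ATP5MC1 holds 4 CAAT boxes and no other searched motif in the 250 bases before the start. Capitals mark any searched motif.
SDHB (chr1:17054033-17054282, minus strand): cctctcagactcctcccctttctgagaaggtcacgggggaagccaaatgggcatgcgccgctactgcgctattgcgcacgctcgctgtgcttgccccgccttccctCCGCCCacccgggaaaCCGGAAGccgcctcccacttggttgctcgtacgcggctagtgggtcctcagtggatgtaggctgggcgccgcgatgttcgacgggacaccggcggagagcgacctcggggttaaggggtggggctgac
ATP5MC1 (chr17:48892537-48892786, plus strand): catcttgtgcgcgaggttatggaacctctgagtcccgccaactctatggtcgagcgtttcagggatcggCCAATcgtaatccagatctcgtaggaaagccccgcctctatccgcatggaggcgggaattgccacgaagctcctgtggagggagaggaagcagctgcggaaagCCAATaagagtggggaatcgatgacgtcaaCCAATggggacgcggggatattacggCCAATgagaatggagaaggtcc

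On the TPM scale (transcripts per 1000000, deposited by the authors), the 86 genes summed to 32823, 29902 and 29798 in bryostatin 1, 2 and 3 and to 33692, 34167 and 33059 in DMSO 1, 2 and 3. All 3 sums with bryostatin lay below all 3 with DMSO, by little in bryostatin 1. This held in TPM only. In CPM the genes summed to 13723, 10716 and 10791 in bryostatin 1, 2 and 3. The DMSO sums in CPM were 12075, 12668 and 11764, so bryostatin 1 was the highest of the 6 libraries. Subunits of the same complex differed widely in transcript level. In DMSO libraries complex I ran between 11.2 TPM (NDUFV3) and 863 TPM (NDUFS5), complex III between 54.3 (UQCRB) and 1409 (UQCRH), complex IV between 81.3 (COX7B) and 1341 (COX6A1) and complex V between 53.3 (ATP5F1E) and 2329 (ATP5MF), all genes picked out by their level. The 4 complex II genes spanned only 104 TPM (SDHC) to 259 TPM (SDHB). TPM of very short transcripts rest on small effective lengths, which for ATP5ME was 58 bases, and many of these genes have processed pseudogenes with near-identical sequence, so single levels are uncertain. The order of levels was nearly the same with bryostatin and with DMSO (Spearman 0.996 over the 79 genes that are not readthrough genes or minor paralogues, a description across genes within the same libraries).

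Of the 86 genes, 82 passed the filter on low counts. The other 4 are relatives of expressed subunits and were at or near 0. COX4I2, a relative of COX4I1 known for its expression in lung, had 1 count in bryostatin 3 and 0 in the other 5 libraries. COX6B2, the testis form of COX6B1, had 1, 0 and 2 counts in bryostatin 1, 2 and 3 and 0 in each DMSO library. UQCRHL had 3.08, 1.03 and 0 in bryostatin 1, 2 and 3 and 0 in each DMSO library, and ATP5MGL had 0 in each bryostatin library and 2, 0 and 0 in DMSO 1, 2 and 3. The muscle forms COX6A2 and COX7A1 had no values in the data used here. The readthrough genes NDUFC2-KCTD14 and ATP5MF-PTCD1, which share exons and reads with their neighbours, passed with 0 to 69.2 counts per library and are left out of the description of single subunits. NDUFA4L2, a relative of NDUFA4 known as a hypoxia-induced gene, was low at 5.08, 6.59 and 6.23 TPM with bryostatin and 5.90, 3.90 and 4.40 TPM with DMSO, and the groups overlapped.

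The design implies a comparison of bryostatin with DMSO. With all 6 libraries no member passed the test, and the fitted changes were small. In edgeR's quasi-likelihood test with Benjamini-Hochberg adjustment over 11613 genes, 0 of the 82 members were higher and 0 lower at an adjusted p under 0.05, where 3.72% of all tested genes were higher and 0.835% lower (4.56% in either direction). At an unadjusted p under 0.05, 1 member was higher and 4 were lower, against 11.5% and 7.22% of all genes; DESeq2 called 1 member lower, NDUFA9, and 0 higher (1.49% and 3.98% of all genes). With library size as the only scaling, 1 was lower and 0 higher (1.19% and 3.26%). The median log2 fold change of the members (bryostatin over DMSO) was -0.04, against -0.00139 for all tested genes, and 51 of the 82 were negative. By complex the medians were -0.04 for complex I (37 genes), -0.08 for complex II (4), -0.10 for complex III (9), 0.02 for complex IV (13) and -0.03 for complex V (19). The median SE of a member's log2 fold change was 0.118. A missed threshold at that error does not show that the levels were alike.

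The members moved together within a library, and in opposite directions in bryostatin 1 and in bryostatin 2 and 3. The median log2 CPM of the members stood at 0.22, -0.19 and -0.17 relative to the DMSO mean in bryostatin 1, 2 and 3, and at -0.01, 0.07 and -0.05 in DMSO 1, 2 and 3, while the median over all tested genes lay within 0.0136 of 0 in every library. Of the 82 members, 76 were above the DMSO mean in bryostatin 1 and 75 were below it in both bryostatin 2 and bryostatin 3. Bryostatin 1 was the highest of all 6 libraries for 61 members (74.4%), where it was the highest for 33.7% of all tested genes. Other short genes stood nearly as high in it. In the shortest length class, which holds 62 members, the median in bryostatin 1 was 0.25 for members and 0.23 for other genes. Each longer class holds 7 members or fewer, and there the members stood further above the other genes, as at 0.22 against 0.14 in the next class. Bryostatin 2 and 3 were both below every DMSO library for 57 members (69.5%), against 25.5% of all tested genes, and both above for 1 member, against 26.5%.

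**Figure D1:**
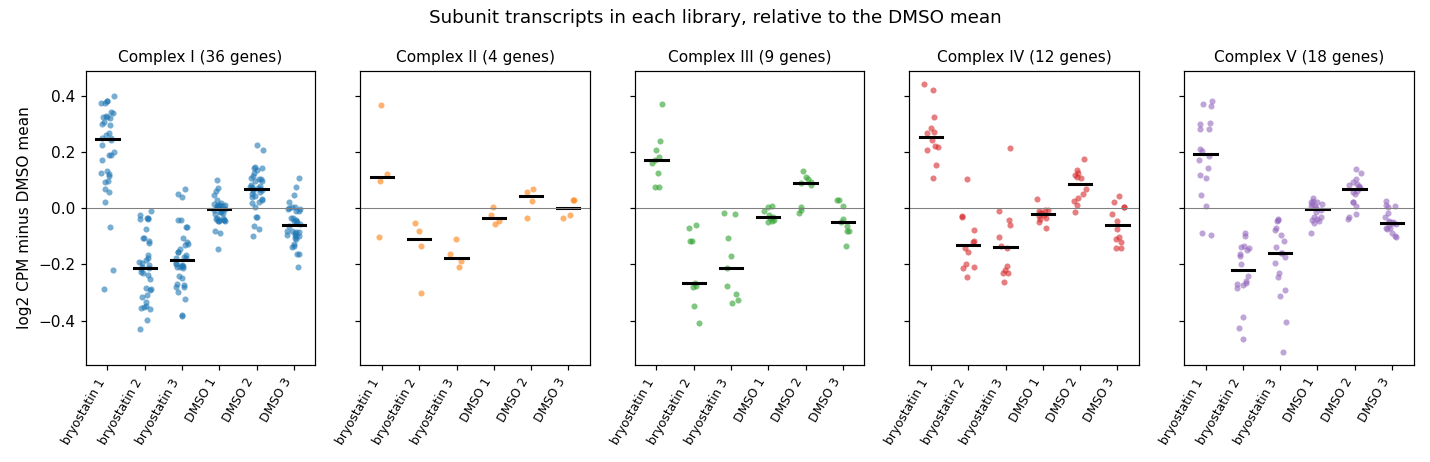
Log2 CPM of each subunit gene minus its DMSO mean (vertical axis) in each library (horizontal axis), with a panel for each complex; points are genes, black bars are medians, and readthrough genes and minor paralogues are left out. In every complex the median lies above 0 in bryostatin 1 and below 0 in bryostatin 2 and 3.

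Without bryostatin 1, most members were lower with bryostatin. In the same test on the remaining 5 libraries, 49 of 82 members fell and 1 rose, where 13.2% of the 11790 tested genes fell and 13.8% rose (27.0% in either direction). Among all genes of the shortest length class, where 62 of the members lie, 21.0% fell and 9.78% rose. The median log2 fold change of the members was -0.18 against -0.00252 for all genes, and 77 of 82 were negative. The falls were slight, between 0.731 and 0.925 of the DMSO level, with a median log2 fold change of -0.24 among those that passed. In complex I, 22 of 37 fell, in complex II 2 of 4, in complex III 7 of 9, in complex IV 6 of 13 and in complex V 12 of 19, with medians of -0.19, -0.13, -0.28, -0.13 and -0.20 in that order. The 2 against 3 comparison rests on 2 bryostatin libraries, and no other single library brought a member past the threshold when it was left out. A fit on all 6 libraries that weights each by its quality gave 40 members lower and 1 higher (12.1% and 13.7% of all genes). The 40 were all among the 49. The weights come from the same counts, and bryostatin 1 had only 0.104, so this fit comes close to leaving that library out. Transcript length moved with the result too. Members were below the other genes in each length class, at -0.20 (62 members), -0.17 (7), -0.15 (6), -0.15 (3) and -0.24 (4) from the shortest to the longest, where the other genes had -0.07, -0.03, -0.00390, 0.03 and 0.05. With an offset for length in the fit, a choice added after seeing the data, 35 members fell and 1 rose without bryostatin 1 (15.8% and 13.1% of all genes), and 34 of those 35 were among the 49. With all 6 libraries and the length offset 5 members fell, ATP5F1B, ATP5MC1, NDUFS3, UQCRC1 and ATP5MK (4.82% of all genes fell and 6.54% rose).

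**Figure D2:**
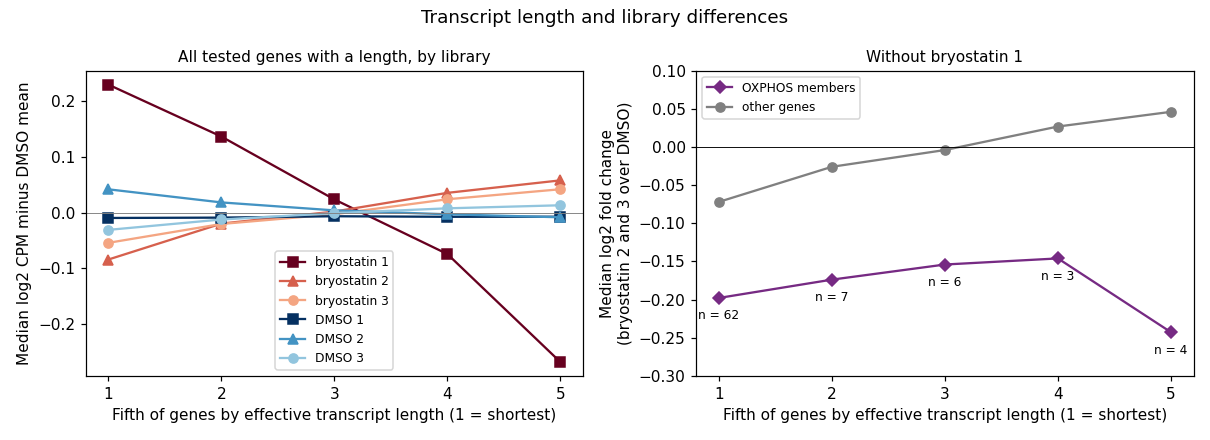
Left, median log2 CPM minus the DMSO mean of all tested genes with a length, by class of effective transcript length, in each library; right, median log2 fold change of bryostatin 2 and 3 over DMSO for the members (n per class given) and for the other genes. Bryostatin 1 slopes down from 0.23 in the shortest class to -0.27 in the longest, and the members lie below the other genes in every class.

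Complex I, the NADH dehydrogenase, has a catalytic core, which carries the flavin and iron-sulphur centres, surrounded by supernumerary subunits that stabilise it. Of the 7 core genes, 6 fell without bryostatin 1 (median log2 fold change -0.23), and of 29 supernumerary genes 16 fell, with a median of -0.19, where 13.2% of all tested genes fell. With all 6 libraries none of them passed, with medians of -0.10 and -0.04. NDUFA9 (chromosome 12, 4649114 to 4694317, GRCh38.p14), a supernumerary subunit needed for stable membrane attachment of the core arm, had the smallest p of all members in the fit of 6 libraries. It had 17.0, 19.4 and 17.9 TPM in bryostatin 1, 2 and 3, against 23.5, 24.3 and 23.2 TPM in DMSO 1, 2 and 3. All bryostatin libraries were below all DMSO libraries, yet its log2 fold change of -0.30 ± 0.07 (SE) missed the threshold (edgeR adjusted p = 0.0666). It was -0.34 ± 0.05 without bryostatin 1 (adjusted p = 7.91e-05), and with the length offset it was -0.21 with all libraries (adjusted p = 0.361) and -0.41 without bryostatin 1 (adjusted p = 2.91e-07). Its effective length of 8091 bases is long for a subunit gene.

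NDUFS1, the largest core subunit, had 15.5, 19.8 and 19.9 TPM in bryostatin 1, 2 and 3, against 23.0, 21.6 and 22.9 TPM in DMSO 1, 2 and 3. Its groups did not overlap either, and bryostatin 1 was the lowest. Its log2 fold change was -0.21 ± 0.07 with all libraries (edgeR adjusted p = 0.130) and -0.17 ± 0.04 without bryostatin 1 (adjusted p = 0.00640). NDUFS1 has an effective length of 11389 bases. With the length offset its log2 fold change was -0.10 with all libraries (edgeR adjusted p = 0.606). It was -0.25 with the offset without bryostatin 1 (adjusted p = 4.75e-05). NDUFA10 had 36.6, 36.4 and 40.8 TPM with bryostatin and 46.3, 45.5 and 46.9 TPM with DMSO, again without overlap (log2 fold change -0.17, adjusted p = 0.290; -0.23 without bryostatin 1, adjusted p = 0.00311). The core subunit NDUFS3 had 214, 203 and 197 TPM with bryostatin and 245, 259 and 249 TPM with DMSO. In CPM, however, bryostatin 1 lay inside the DMSO range (105, 83.3 and 82.3 CPM against 100.3, 109.3 and 100.1 CPM), and the log2 fold change was -0.20 (adjusted p = 0.378), or -0.32 without that library (adjusted p = 1.75e-04). NDUFV1, which binds NADH and the flavin, fell by 0.21 without bryostatin 1 (adjusted p = 0.00285), where all 6 libraries gave -0.10 (adjusted p = 0.622).

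**Figure D3:**
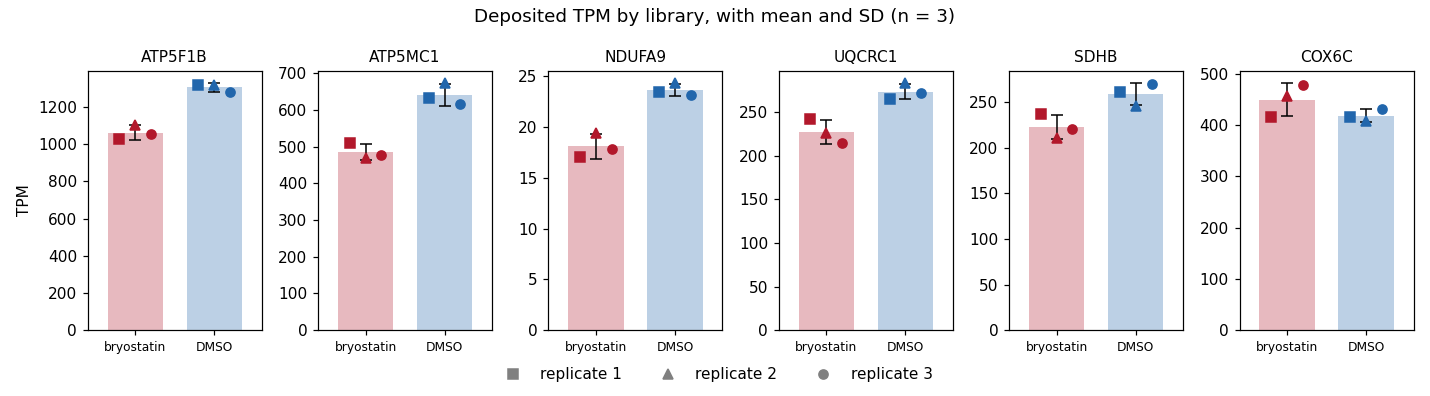
Deposited TPM (vertical axis, from 0) of ATP5F1B, ATP5MC1, NDUFA9, UQCRC1, SDHB and COX6C in the bryostatin and DMSO libraries; bars are means, error bars SD (n = 3), and squares, triangles and circles are replicates 1, 2 and 3. The bryostatin points of ATP5F1B, at 1025 to 1104 TPM, all lie below its DMSO points, while those of COX6C overlap.

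Complex II, succinate dehydrogenase, is also an enzyme of the citric acid cycle. SDHA is its flavoprotein, SDHB carries the iron-sulphur centres, and SDHC and SDHD anchor both in the membrane. SDHA had 96.6, 116 and 106 TPM in bryostatin 1, 2 and 3, against 121, 125 and 122 TPM in DMSO 1, 2 and 3, with no overlap of the groups. Its log2 fold change was -0.12 ± 0.06 (edgeR adjusted p = 0.352), and -0.14 ± 0.05 without bryostatin 1 (adjusted p = 0.0377). SDHB had 237, 210 and 220 TPM with bryostatin and 261, 246 and 270 TPM with DMSO. In CPM bryostatin 1, at 138, was the highest of the 6 libraries, and the log2 fold change was -0.12 (adjusted p = 0.617), or -0.26 without bryostatin 1 (adjusted p = 5.42e-04). The anchors did not pass without bryostatin 1 either, with -0.12 for SDHC (adjusted p = 0.101) and -0.11 for SDHD (adjusted p = 0.155). With all libraries they had -0.05 and 0.07 (adjusted p = 0.821 and 0.826).

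Complex III, the cytochrome bc1 complex, was the complex with the largest share of falls without bryostatin 1. That share rests on only 9 tested genes, and 13.2% of all tested genes fell in the same fit. CYC1 is the cytochrome c1 subunit and UQCRFS1 the Rieske iron-sulphur protein, while UQCRC1 and UQCRC2 are the large core proteins that face the matrix. UQCRC1 had 242, 226 and 215 TPM in bryostatin 1, 2 and 3, against 266, 284 and 272 TPM in DMSO 1, 2 and 3. The groups were separate on this scale but not in CPM, where bryostatin 1 reached 250.5 against 230 to 252 in DMSO libraries. Its log2 fold change was -0.17 ± 0.11 (edgeR adjusted p = 0.470), and -0.30 ± 0.05 without bryostatin 1 (adjusted p = 5.68e-05). Without bryostatin 1, CYC1 fell by 0.29 (adjusted p = 4.32e-04), UQCR10 by 0.28 (adjusted p = 0.00142), UQCRQ by 0.38 (adjusted p = 6.46e-04) and UQCRFS1 by 0.14 (adjusted p = 0.0363). None of these passed with all 6 libraries, where CYC1 had -0.12 (adjusted p = 0.650), UQCR10 -0.15 (adjusted p = 0.520), UQCRQ -0.19 (adjusted p = 0.537) and UQCRFS1 -0.03 (adjusted p = 0.918). The members that did not pass were UQCRH and UQCRB.

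Like the other complexes, complex IV, cytochrome c oxidase, held genes on both sides of the DMSO level. Its median with all libraries was 0.02, of which the sign depended on the scaling (-0.03 with library size only and -0.08 on log2(TPM + 1)), and the only member that rose without bryostatin 1 belonged to it. COX6C (chromosome 8, 99877865 to 99893707) had 146, 132 and 143 CPM in bryostatin 1, 2 and 3, against 122, 124 and 123 CPM in DMSO 1, 2 and 3. Every bryostatin library was above every DMSO library. Its log2 fold change was 0.19 ± 0.07 with all libraries (edgeR adjusted p = 0.173) and 0.16 ± 0.05 without bryostatin 1 (adjusted p = 0.0183). On the TPM scale its groups overlapped, at 415, 456 and 478 TPM with bryostatin and 415, 408 and 432 TPM with DMSO.

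Of the other complex IV genes, 6 fell without bryostatin 1, where 13.2% of all tested genes fell. In the edgeR fit of all 6 libraries 0 fell, where 0.835% of all tested genes did. Without bryostatin 1, COX5B fell by 0.25 (edgeR adjusted p = 0.0320), COX7A2 by 0.22 (adjusted p = 0.0161), COX5A by 0.13 (adjusted p = 0.0333) and NDUFA4, named for complex I but a subunit of complex IV, by 0.18 (adjusted p = 0.00653). With all 6 libraries COX5B had -0.08 (adjusted p = 0.808), COX7A2 -0.10 (adjusted p = 0.673), COX5A 0.02 (adjusted p = 0.954) and NDUFA4 -0.03 (adjusted p = 0.909). Leaving out bryostatin 1 thus turned the sign of COX5A and enlarged the other changes. COX4I1, the ubiquitous form of subunit 4, had 1193, 1048 and 1038 TPM in bryostatin 1, 2 and 3, against 1063, 1117 and 1004 TPM in DMSO 1, 2 and 3. Its groups overlapped, with a log2 fold change of 0.14 ± 0.13 (adjusted p = 0.600), and -0.02 ± 0.05 without bryostatin 1 (adjusted p = 0.812). COX6A1 had -0.06 with all libraries (adjusted p = 0.821) and -0.18 without bryostatin 1 (adjusted p = 0.0972). COX7A2L, which joins complexes III and IV in supercomplexes, had 114, 106 and 103 TPM with bryostatin and 87.3, 99.3 and 96.6 TPM with DMSO. On the TPM scale every bryostatin library was above every DMSO library. In CPM bryostatin 1, at 95.0, was above the DMSO range of 69.2 to 71.0, while bryostatin 2 and 3, at 68.3 and 65.1, were below it. The direction in bryostatin 2 and 3 thus depended on the scale, and that of the fit on bryostatin 1. The log2 fold change was 0.12 (edgeR adjusted p = 0.687), or -0.07 without bryostatin 1 (adjusted p = 0.395).

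ATP synthase is a rotary enzyme whose F1 head makes ATP, whose ring of c subunits turns with the proton flow, and whose peripheral stalk holds the head still. Without bryostatin 1, 4 of 5 F1 genes fell (median -0.17), 4 of 4 stalk genes (-0.22), 2 of 3 c-ring genes (-0.25) and 2 of 5 other membrane genes (-0.23), where 13.2% of all tested genes fell. With all 6 libraries none of them passed, with medians of -0.03, -0.0072, -0.10 and -0.14 in that order. ATP5F1B (chromosome 12, 56638175 to 56645984), the catalytic beta subunit, had 1025, 1104 and 1052 TPM in bryostatin 1, 2 and 3, against 1316, 1321 and 1278 TPM in DMSO 1, 2 and 3. All bryostatin libraries were lower than all DMSO libraries, also in CPM. Its log2 fold change was -0.21 ± 0.07 (edgeR adjusted p = 0.178), -0.27 ± 0.04 without bryostatin 1 (adjusted p = 5.29e-05) and -0.26 with the length offset (adjusted p = 0.00479). ATP5F1A, the alpha subunit, fell by 0.17 without bryostatin 1 (adjusted p = 0.00415), where all 6 libraries gave -0.07 (adjusted p = 0.714).

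The c subunit is encoded by the 3 genes ATP5MC1, ATP5MC2 and ATP5MC3, whose mature proteins are the same. ATP5MC1 (chromosome 17, 48892787 to 48895871) had 509, 469 and 478 TPM in bryostatin 1, 2 and 3, against 633, 674 and 617 TPM in DMSO 1, 2 and 3. The groups were far apart in TPM and nearly met in CPM (127, 97.5 and 102 CPM against 131, 147 and 127 CPM). Its log2 fold change was -0.31 ± 0.11 (edgeR adjusted p = 0.178), -0.44 ± 0.06 without bryostatin 1 (adjusted p = 2.55e-05) and -0.34 with the length offset (adjusted p = 0.00535). ATP5MC3 had 209, 185 and 184 TPM with bryostatin and 223, 226 and 215 TPM with DMSO, and fell by 0.25 without bryostatin 1 (adjusted p = 1.83e-04), where all 6 libraries gave -0.10 (adjusted p = 0.707). ATP5MC2, the most abundant of the 3 in TPM, had 797, 726 and 721 TPM with bryostatin and 729, 798 and 782 TPM with DMSO, with overlapping groups, and had 0.05 with all libraries (adjusted p = 0.842) and -0.09 without bryostatin 1 (adjusted p = 0.238). Whether the 3 genes differ from each other in response was not tested. The small membrane subunits ATP5MK and ATP5MJ fell by 0.45 and 0.29 without bryostatin 1 (adjusted p = 1.24e-04 and 5.10e-04), where all 6 libraries gave -0.27 and -0.14 (adjusted p = 0.383 and 0.575). ATP5IF1, the inhibitor that blocks ATP hydrolysis by the enzyme, had 657, 614 and 634 TPM with bryostatin and 660, 659 and 625 TPM with DMSO, overlapping, with a log2 fold change of 0.02 (adjusted p = 0.953), or -0.09 without bryostatin 1 (adjusted p = 0.232).

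**Figure D4:**
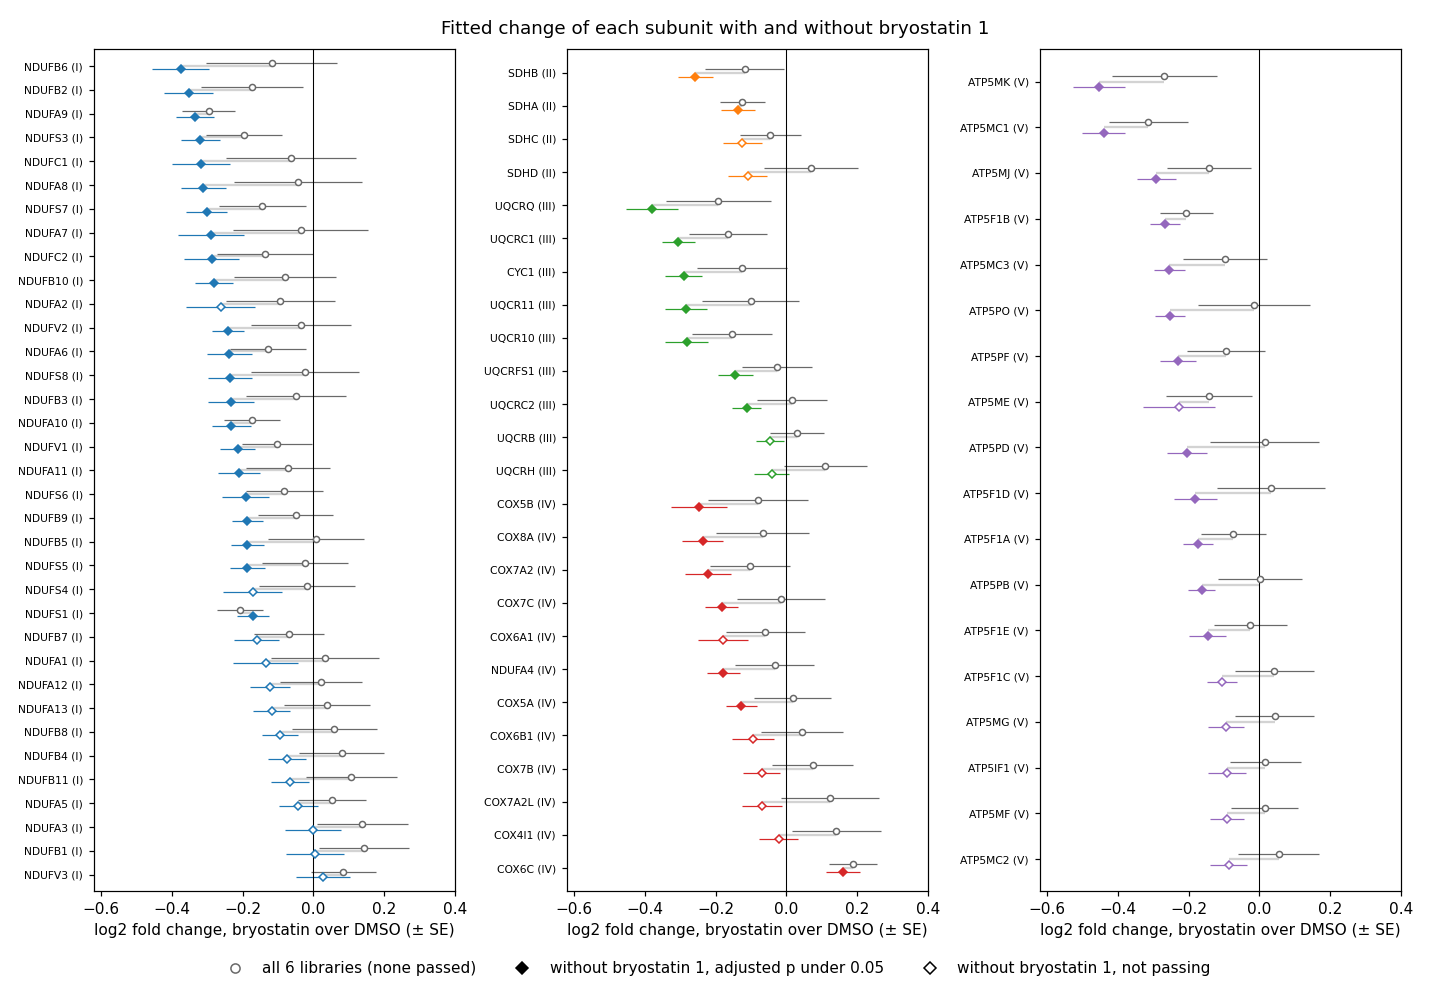
Log2 fold change, bryostatin over DMSO, ± SE (horizontal axis), of the tested subunit genes reported here (complex in brackets), from all 6 libraries (open circles) and without bryostatin 1 (diamonds, filled where the adjusted p was under 0.05). The diamond lies left of the circle for every gene drawn except NDUFS1, and COX6C is the only filled diamond right of 0.

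The separation of the groups depended on the scale. In CPM, groups were separate for 7 members, 8.54%, against 27.8% of all tested genes: 6 had every bryostatin library below every DMSO library (12.5% of all tested genes did) and 1 had them above (15.3%). The 6 were NDUFA9, NDUFA10, NDUFS1, SDHA, ATP5F1B and ATP5MC1, and the 1 was COX6C. In TPM, 35 of the 82 (42.7%) had every bryostatin library below every DMSO library, against 21.2% of all tested genes, and 1 had them above, against 9.33%. On log2(TPM + 1), 3 members fell in the limma fit with all 6 libraries, ATP5MC1, ATP5F1B and NDUFS3 (1.99% of all genes fell and 2.43% rose), with a median of -0.14 for the members and -0.09 for all genes, so the shift of the members against all genes is smaller than the median alone shows.

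Genes that build or serve the same machinery were compared by lists. Of 51 assembly factors, which insert cofactors and join subunits, 0 passed with all 6 libraries (at an unadjusted p under 0.05, 2 had positive and 5 negative changes, where 11.5% and 7.22% of all genes did). Without bryostatin 1, 16 fell and 1 rose, beside 13.2% and 13.8% of all genes, and their median log2 fold change was -0.15. UQCC1 and BCS1L, which assemble complex III, fell by 0.33 and 0.48 without bryostatin 1 (edgeR adjusted p = 2.78e-04 and 1.72e-05; -0.32 and -0.34 with all libraries, adjusted p = 0.0522 and 0.168). Among complex IV factors, COX11 fell by 0.33 and LRPPRC, which stabilises mitochondrial mRNAs, by 0.18 (adjusted p = 9.23e-05 and 0.00170; -0.26 and -0.21 with all libraries, adjusted p = 0.141 and 0.108). For complex II, SDHAF3 fell by 0.39 (adjusted p = 0.00105) while SDHAF1 had 0.07 (adjusted p = 0.730), where all libraries gave -0.21 and 0.22 (adjusted p = 0.510 and 0.503). For complex V, ATPAF1 fell by 0.25 (adjusted p = 0.00276) while ATPAF2 had 0.24 (adjusted p = 0.0639), where all libraries gave -0.18 and 0.22 (adjusted p = 0.324 and 0.259). For complex I, NDUFAF7 had 0.17 (adjusted p = 0.230) and NDUFAF8 -0.24 (adjusted p = 0.0859), where all libraries gave 0.26 and -0.22 (adjusted p = 0.283 and 0.341). NDUFAB1, the acyl carrier subunit of complex I, fell by 0.48 and cytochrome c, CYCS, by 0.26 without bryostatin 1 (adjusted p = 1.28e-05 and 2.69e-05; -0.30 and -0.20 with all libraries, adjusted p = 0.294 and 0.151).

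Of 17 genes of the citric acid cycle and pyruvate dehydrogenase, 0 passed with all libraries, and 8 were lower at an unadjusted p under 0.05 (7.22% of all genes). Without bryostatin 1, 9 fell and 0 rose, beside 13.2% and 13.8% of all genes. These genes stood at -0.06, -0.14 and -0.16 relative to the DMSO mean in bryostatin 1, 2 and 3 (medians), so bryostatin 1 did not lie above the DMSO mean here. OGDH, a subunit of the oxoglutarate dehydrogenase complex, had -0.31 with all libraries (edgeR adjusted p = 0.0637) and fell by 0.37 without bryostatin 1 (adjusted p = 6.93e-06), and PDHX had -0.27 (adjusted p = 0.124) and fell by 0.34 (adjusted p = 2.75e-04). Of 10 carriers and structural genes, 0 passed with all libraries, and 5 fell and 0 rose without bryostatin 1 (13.2% and 13.8% of all genes). The import receptor TOMM20 fell by 0.22 (adjusted p = 2.83e-04) while the ADP/ATP carrier SLC25A6 had 0.16 (adjusted p = 0.0598), where all libraries gave -0.17 and 0.34 (adjusted p = 0.194 and 0.230). Of 14 tested regulators of these genes, 0 passed with all libraries, and 2 rose and 2 fell without bryostatin 1, a share near that of all genes (13.8% and 13.2%). Those that rose were the transcription factors SP1 by 0.22 and CREB1 by 0.19 (edgeR adjusted p = 0.00105 and 0.0198; 0.14 and 0.07 with all libraries, adjusted p = 0.459 and 0.822). POLRMT, the mitochondrial RNA polymerase, fell by 0.37 (adjusted p = 0.00548) and GABPB1, the beta subunit of GABP, by 0.18 (adjusted p = 0.0447), where all 6 libraries gave -0.35 and -0.28 (adjusted p = 0.0796 and 0.208).

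The changes can be set beside the motifs printed above. Without bryostatin 1, 9 of the 11 members with the YY1 core fell (median log2 fold change -0.25) and 32 of the 57 tested members without it (-0.17). For the ETS core it was 10 of 20 members with it (-0.19) and 31 of 48 without it (-0.18). With and without the others it was 28 of 42 and 13 of 26 for the GC box, 10 of 22 and 31 of 46 for the CAAT box, 4 of 6 and 37 of 62 for the TATA box, and 1 of 4 and 40 of 64 for the NRF1 core. Among all tested genes 13.2% fell without bryostatin 1, and among those of the shortest length class 21%. Falls of other genes with these motifs were not counted. The counts of members are a description and were not tested.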

How the data were processed

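The authors deposited a single table of expected counts, FPKM and TPM, in which 6.31 to 7.22% of count values per library were fractional. FPKM divide by length and library size and TPM sum to 1000000 per library, both as deposited by the authors. The submitters' processing notes name HISAT2 2.2.1, RSEM 1.2.28, DESeq2 1.40.2 and GRCh38 without saying what each did. The annotation and the strand setting are unknown here, and values of genes that have near-identical copies are uncertain. Poly(A) RNA was fragmented and randomly primed, per the labels' protocols.

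Counts were rounded. The main test was edgeR 4.0.16 (R 4.3.3) with TMM scaling, filterByExpr and a robust quasi-likelihood fit; it was 2-sided, adjusted by Benjamini-Hochberg over every tested gene, with a threshold of 0.05. An SE is the absolute log2 fold change over the root of F. Effective length is the median count per FPKM over libraries with an FPKM of at least 0.5, and the length offset is a local regression (span 0.5) of each library on it. Deviations use log2 CPM with a prior count of 2. DESeq2 1.42.0 and limma 3.58.1 served as alternatives. The fits were tested on simulated data. Members and lists were chosen with earlier results of these data known. Named members were the 4 of each complex with the smallest p, a fixed list, and the extremes of fold change; in the other lists, those with the smallest p. Other names were chosen after their values were seen. NDUFA4 and NDUFA4L2 were counted under complex IV. The RefSeq gene table held all 86 members and 15767 of the 15802 identifiers. Of the genes these rules name, 2 are not reported here.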

Additional observations from a re-analysis of the deposited data

How the results depend on the processing

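Over all genes, 432 were higher and 97 lower with 6 libraries. The count of higher genes was 1586 with quality weights, 255, 256 and 176 on log2(TPM + 1), log2(TPM + 0.1) and log2(TPM + 1) without a filter, 760 with the length offset, and 128 to 1632 when each library was left out in turn. The count of lower genes was 236 with DESeq2, 1402, 208, 209 and 560 under the same settings in that order (quality weights, the filtered TPM scales, length offset), and 10 to 1551 with each library left out. The length offset without bryostatin 1, chosen after seeing the data, gave 1546 higher and 1860 lower.

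Of the members, 0 were higher and 0 lower with 6 libraries. The number higher was 1 with quality weights, 1 with the length offset without bryostatin 1, and 0 to 1 with each library left out. The number lower was 1 with library size only, 1 with DESeq2, 40 with quality weights, 3, 3 and 2 on the TPM scales, 5 with the length offset, 35 with the length offset without bryostatin 1, and 0 to 49 with each library left out, where 49 came from leaving out bryostatin 1 and 0 from each other library. The median of the members was -0.04 with 6 libraries and -0.18 without bryostatin 1, and -0.11 with the length offset without it. The spread between the bryostatin libraries comes mostly from bryostatin 1, so it is no measure of how stable these medians are. The cause of these differences was not tested.

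Deviations of same-numbered libraries from their group means correlated at -0.212, -0.165 and 0.0311 (Pearson), and the numbers were not treated as pairs. For bryostatin 1 the highest such correlation was with DMSO 2, at 0.229. Bryostatin 1 weighs on the mean, and so on the deviations, of every bryostatin library, so these values cannot show whether pairs exist. With the replicate block 284 genes were higher and 54 lower, and 0 members in either direction.

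Named genes with a log2 fold change near 0 or few counts changed sign under some settings. SDHD was -0.091 with quality weights, -0.039 on log2(TPM + 1), filtered or not, -0.039 on log2(TPM + 0.1) and -0.069 with the length offset without bryostatin 1. COX5A was -0.026 with library size only, -0.11 with quality weights, -0.085 on log2(TPM + 1), filtered or not, -0.085 on log2(TPM + 0.1), -0.040 with the length offset and -0.074 with the length offset without bryostatin 1. COX7A2L was -0.055 with quality weights and -0.028 with the length offset without bryostatin 1. ATP5IF1 was -0.026 with library size only, -0.072 with quality weights, -0.030 on log2(TPM + 1), filtered or not, -0.030 on log2(TPM + 0.1) and -0.0055 with the length offset. ATP5MC2 was -0.056 with quality weights, -0.041 on log2(TPM + 1), filtered or not and -0.041 on log2(TPM + 0.1). ATP5MF-PTCD1 was 1.16 with limma-voom and 1.76 with quality weights. S100A9 was 0.0027 with the length offset without bryostatin 1. With each library left out in turn, the sign turned at least once for SDHD (-0.11 to 0.16), COX4I1 (-0.022 to 0.22), UQCRFS1 (-0.14 to 0.031), COX5A (-0.13 to 0.081), COX5B (-0.25 to 0.013), COX6A1 (-0.18 to 0.012), COX7A2L (-0.069 to 0.22), NDUFA4 (-0.18 to 0.048), ATP5IF1 (-0.092 to 0.090), ATP5MC2 (-0.087 to 0.13) and ATP5MF-PTCD1 (-1.05 to 0.24), given as their lowest and highest values. Depth limits the 4 members at 0 to 3 counts.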
